A study of Arabidopsis thaliana with 6 samples.

Results

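The genes described here encode the nuclear-encoded photosynthetic machinery of Arabidopsis thaliana, read out in root meristems. They were chosen by locus identifier and number 54 of the 32678 genes in the deposited count table. By complex they comprise 4 antenna genes of photosystem I (LHCA), 13 antenna genes of photosystem II (LHCB), 12 genes of photosystem I (PSA), 10 genes of photosystem II (PSB), 6 genes of electron transport, 4 genes of the Rubisco small subunit (RBCS), the Rubisco activase gene RCA and 4 genes of the Calvin cycle. In leaves the antenna proteins bind chlorophyll and pass light energy to the photosystems, which drive electrons from water to ferredoxin, and the Calvin cycle spends the reductant and ATP on fixing carbon dioxide. In roots most plastids are of other kinds, and these nuclear genes are known to be held low there.

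Bulk RNA sequencing compared 3 libraries of wild type (accession Col-0) with 3 libraries labelled papl1-1papl2(cog1-6cdf4), written papl1 papl2 below, a double mutant in COG1 and CDF4. Both of these loci encode Dof-type zinc finger transcription factors. All seedlings were 5 days old and came from plates with MS salts at 0.5 strength and 1% sucrose, kept at 23 °C in long days. Meristems were cut off by hand, and each genotype entered sequencing with the 3 replicates of best RNA quality. Nothing in the labels states that replicates came from separate plantings, so the p-values measure the spread between these libraries, which may be technical.

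The mutated loci showed no loss of counts, and the labels do not say what kind of alleles these are. COG1 (AT1G29160) had 12.6, 10.9 and 11.0 CPM (counts scaled to library size) in wild type and 21.8, 20.2 and 16.5 CPM in papl1 papl2. Its log2 fold change was 0.76 ± 0.12 (SE, n = 3 per genotype), edgeR gave an adjusted p of 0.0137, and it passed in 10 of 13 alternative settings. CDF4 (AT2G34140) had 3.64, 4.56 and 3.86 CPM in wild type and 5.50, 6.26 and 6.20 CPM in papl1 papl2 (log2 fold change 0.57 ± 0.15, adjusted p = 0.0952). Counts at both loci were thus higher in every mutant-labelled library than in any wild-type library, and each direction below rests on the labels alone.

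Depth ranged from 17849704 to 20914576 counts per library, and 3 counts, taken as the detection floor, stood for 0.143 to 0.168 CPM. This floor covers counting error only, whereas the SE and SD values given below include the spread between libraries. Of 17720 genes tested, 489 passed an adjusted p of 0.05, which is 2.76% of them, with 396 higher (2.23%) and 93 lower (0.525%) in papl1 papl2. Leaving out 1 library at a time gave from 144 (without wild type replicate 1) to 1164 called genes (without papl1 papl2 replicate 3). The median log2 fold change over all tested genes was 0.00, and the middle 50% of the genes lay between -0.09 and 0.12.

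The photosynthesis genes were present at low levels in all 6 libraries. Together they took 3110 to 3758 counts per library, or 0.0153% to 0.0182% of all counts. Of the 54 genes, 37 had more than 3 counts in every library, 7 never exceeded 3 counts, and 4 of those 7 had no count in any library (LHCB1.4, LHCB2.2, RBCS1B and RBCS2B). The filter on low counts kept 39 genes for testing, and no gene it removed exceeded 15 counts in a library. In bulk tissue, fewer cells that express a gene and less RNA per cell cannot be told apart.

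Levels differed widely within and between complexes. On a scale of CPM per kb of exon, averaged over the 6 libraries, the leaf-type ferredoxin gene FD2 stood highest at a level of 22.2, followed by the photosystem II subunit gene PSBX at 18.0, the antenna genes LHCB6 at 11.8 and LHCA4 at 10.9, and the plastocyanin gene PETE2 at 6.30. The next levels were 5.42 for LHCB4.1, 4.97 for LHCB5, 4.88 for PSAK, 4.48 for PSAF and 4.21 for LHCB1.5, and neighbours in this order overlapped across libraries, as did FD2 with PSBX and LHCB6 with LHCA4. The 10 genes of highest level held 57.9% of all counts of the group. The median level of the 39 tested photosynthesis genes was 2.49 CPM per kb, against 9.87 over all tested genes. By complex the median level per kb was 2.97 for LHCA, 2.78 for LHCB, 2.67 for electron transport, 2.13 for PSB, 0.876 for PSA, 0.634 for the Calvin cycle and 0.0066 for RBCS, and RCA stood at 1.1. The complexes were therefore not read out in equal amounts: the small subunit of Rubisco, the most abundant leaf enzyme, had almost no transcript counts, while FD2 had 349 to 546 counts per library and LHCB6 had 239 to 333.

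**Figure D1:**
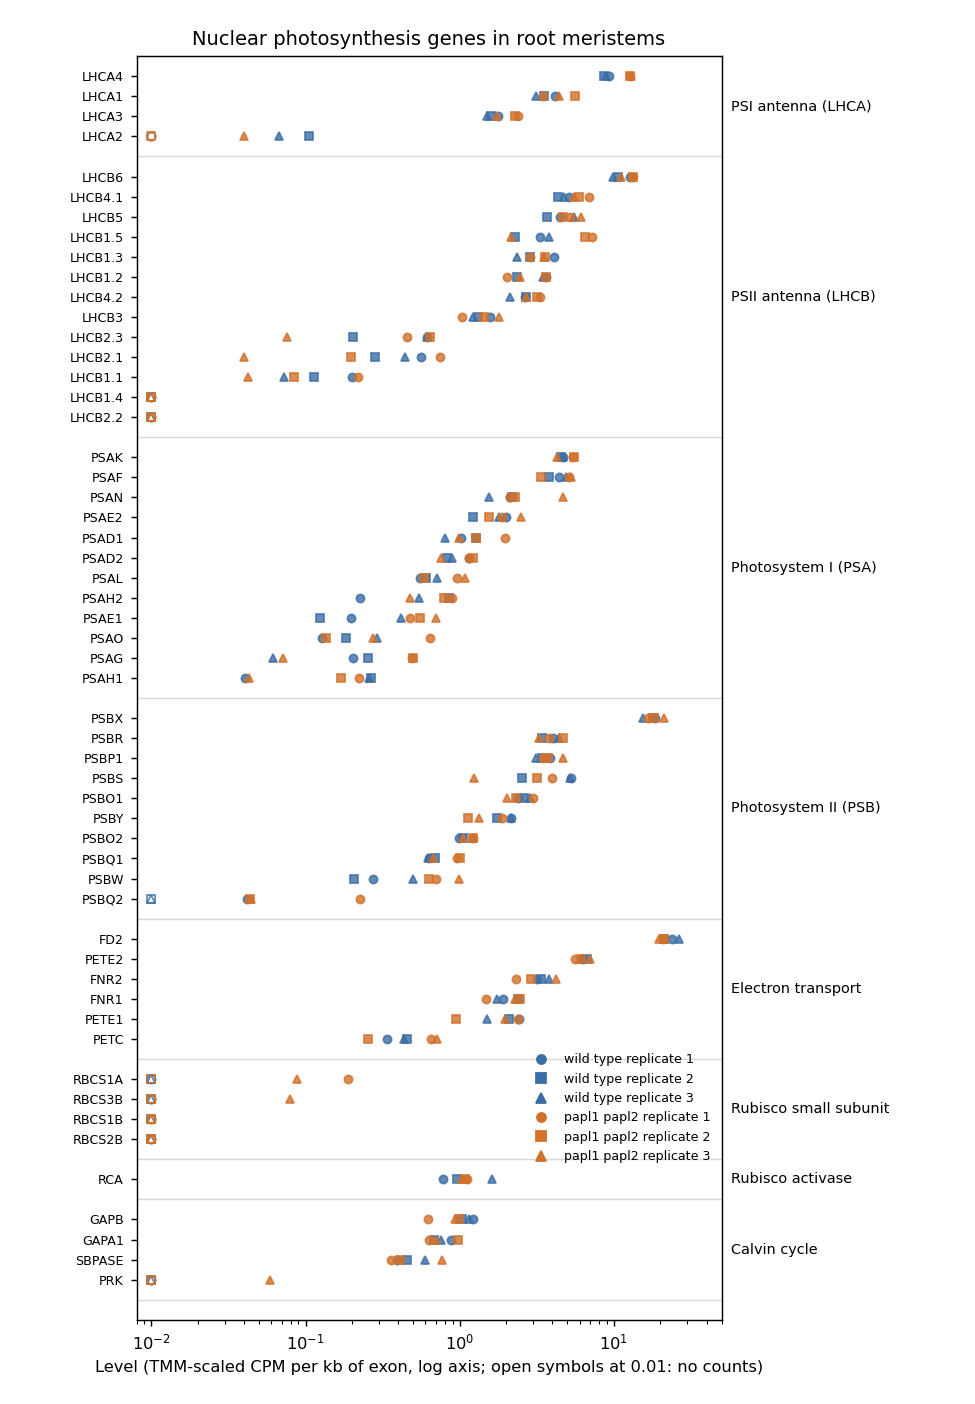
Level of each of the 54 genes in each library, in TMM-scaled CPM per kb of exon on a log axis, grouped by complex. Blue symbols are wild type and orange symbols papl1 papl2, with circle, square and triangle for replicates 1, 2 and 3, and open symbols mark libraries with no counts. FD2, PSBX, LHCB6 and LHCA4 stand at the top, and the RBCS genes sit at or near 0.

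Between the genotypes, 1 of the 39 tested genes passed the test, LHCA4, which was higher in papl1 papl2. This is 2.56% of the tested photosynthesis genes, beside 2.23% of all tested genes called higher, so the count is close to the background. No photosynthesis gene was called lower by edgeR, beside 0.525% of all tested genes, and none was called lower by DESeq2. At an unadjusted p under 0.05 there were 3 genes, all higher (LHCA4, LHCB4.1 and PSBW), beside 15.9% of all tested genes in either direction. The log2 fold change was above 0 for 25 genes and below 0 for 14, with a median of 0.10. The 3 libraries of one genotype lay wholly above those of the other for 5 of 39 genes (12.8%), beside 21.5% of all tested genes. Of these 5, 4 were higher (LHCA4, LHCB4.1, LHCB4.2 and PSBW), beside 11.7% of all tested genes, and 1 was lower (GAPB), beside 9.8%. Summed over the 54 genes, expression was 174.6, 154.2 and 169.4 CPM in wild type and 179.8, 179.7 and 174.6 CPM in papl1 papl2. The summed level of the group thus differed little: the highest wild-type and the lowest papl1 papl2 library both stood at 174.6 CPM.

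**Figure D2:**
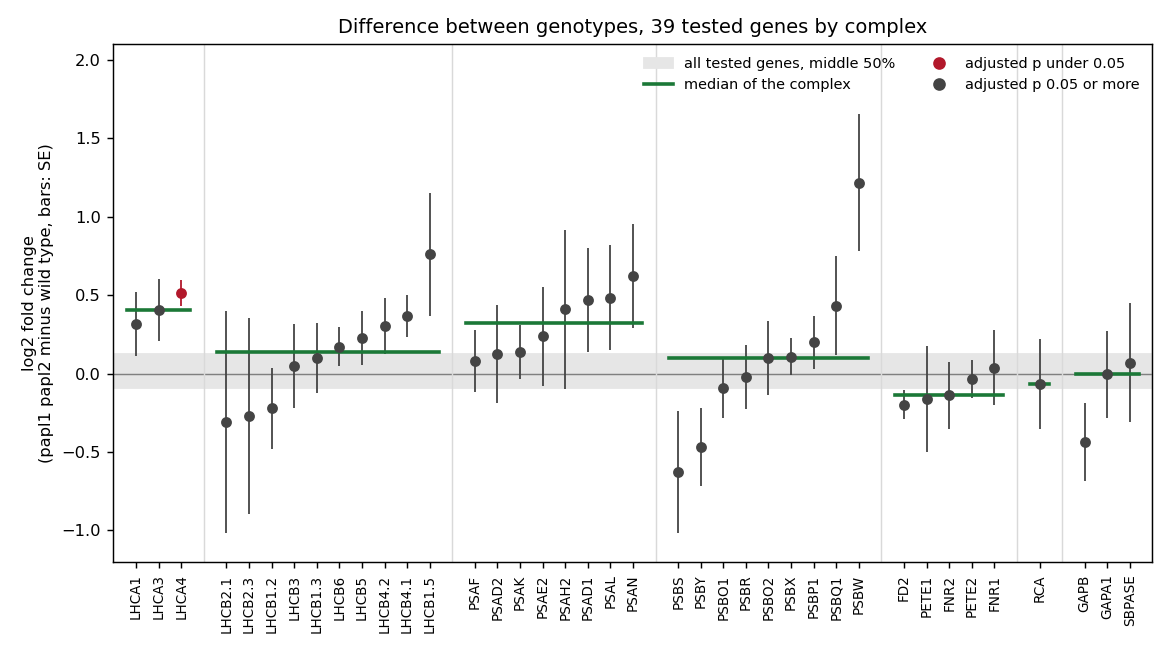
Log2 fold change of papl1 papl2 over wild type for the 39 tested genes, ordered within each complex, with bars for the SE (3 libraries per genotype). Green lines mark the median of each complex, from 0.40 for LHCA to -0.14 for electron transport, the grey band holds the middle 50% of all tested genes (-0.09 to 0.12), and the red point is LHCA4, with an adjusted p of 0.0145.

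The antenna of photosystem I held the called gene. LHCA4 (AT3G47470), one of the chlorophyll-binding proteins of this antenna and the one known for its long-wavelength chlorophylls, had 12.0, 11.3 and 11.5 CPM in wild type and 16.4, 16.6 and 16.6 CPM in papl1 papl2. The groups did not overlap, and the libraries within each genotype were close together (11.6 ± 0.389 CPM against 16.5 ± 0.121 CPM, mean ± SD, n = 3). LHCA4 rose 1.43-fold (log2 0.51 ± 0.08, SE), and the edgeR quasi-likelihood adjusted p was 0.0145. Over 13 alternative settings the adjusted p ran from 0.00839 to 0.0755 and passed in 8. It was lost without wild type replicate 1 (0.0574), 2 (0.0561) or 3 (0.0755), without papl1 papl2 replicate 2 (0.0622), and with replicate number as a block (0.0594).

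The other genes of the photosystem I antenna were measured less precisely. LHCA1, which pairs with LHCA4 in the antenna belt, had 5.32, 4.51 and 3.95 CPM in wild type and 4.40, 7.15 and 5.64 CPM in papl1 papl2, with overlapping groups (log2 fold change 0.32 ± 0.20, adjusted p = 0.512). LHCA3 had a log2 fold change of 0.40 ± 0.20 (adjusted p = 0.358), and LHCA2 had 0 to 3 counts per library and was not tested. Summed over the 4 genes, expression was 20.2, 18.5 and 18.0 CPM in wild type and 24.7, 27.4 and 25.2 CPM in papl1 papl2. The sums did not overlap between genotypes, and LHCA4 made up most of each.

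In photosystem I itself, which reduces ferredoxin at the end of the light reactions, no gene passed the test, while all 8 tested genes had log2 fold changes above 0, from 0.08 to 0.62 with a median of 0.32. Over all tested genes 50.8% had a value above 0. Without papl1 papl2 replicate 1 the median of the 8 was 0.18. PSAF (AT1G31330), which docks plastocyanin, had 5.27, 4.56 and 5.91 CPM in wild type and 6.17, 4.05 and 6.37 CPM in papl1 papl2, with overlapping groups (log2 fold change 0.08 ± 0.20, adjusted p = 0.894). PSAN (AT5G64040), a subunit on the lumen side, had 2.16, 2.23 and 1.57 CPM in wild type and 2.15, 2.33 and 4.75 CPM in papl1 papl2 (log2 fold change 0.62 ± 0.33, adjusted p = 0.409). The high mean of PSAN in papl1 papl2 came from replicate 3, and without that library its log2 fold change was 0.17, the lowest of its leave-one-out values.

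The remaining photosystem I genes had few counts. PSAD1 and PSAD2, the subunits that bind ferredoxin, had log2 fold changes of 0.47 and 0.12, PSAE2 on the same side had 0.24, and PSAL, PSAH2 and PSAK at the periphery of the complex had 0.48, 0.41 and 0.14. PSAE1, PSAG, PSAH1 and PSAO had at most 11 counts in a library and were not tested. Summed over the 12 genes, expression was 15.7 ± 0.362 CPM in wild type and 19.0 ± 2.14 CPM in papl1 papl2, and the sums did not overlap. Since no single gene passed, this common sign remains a description of 3 libraries per genotype.

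**Figure D3:**
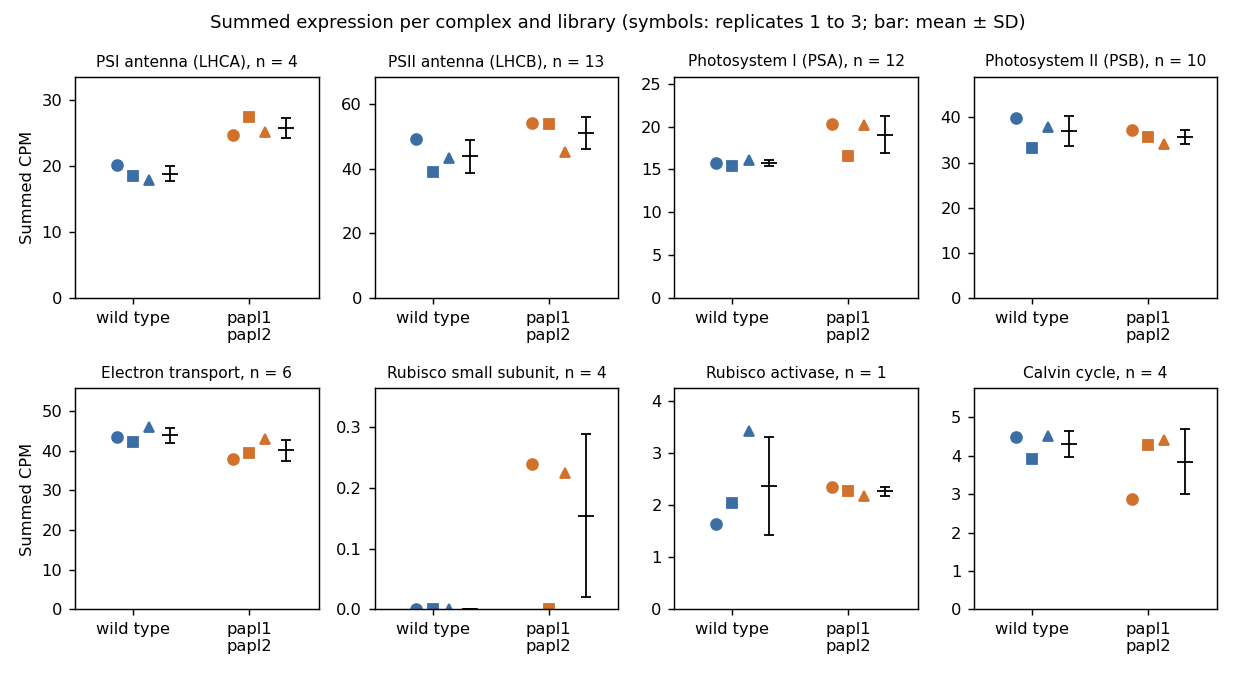
Summed TMM-scaled CPM of each complex in each library, with mean ± SD beside the points (n = 3 per genotype) and each axis starting at 0. The sums of LHCA and PSA do not overlap between genotypes, while those of LHCB, PSB, electron transport, RBCS, RCA and the Calvin cycle do.

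The antenna of photosystem II divides into the major trimers, built from LHCB1, LHCB2 and LHCB3, and the monomeric linkers LHCB4, LHCB5 and LHCB6 that join trimers to the core. No gene of either kind passed the test, and this division was made after the values were known. All 4 linker genes had log2 fold changes above 0, from 0.17 to 0.37, and their summed expression was 32.4, 27.8 and 29.2 CPM in wild type and 37.3, 35.2 and 33.2 CPM in papl1 papl2, without overlap. Of the 6 tested trimer genes, 3 lay above 0 and 3 below, and the 9 trimer genes summed to 14.1 ± 2.78 CPM in wild type and 15.9 ± 3.42 CPM in papl1 papl2, with overlap.

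Among the linkers, LHCB4.1 (AT5G01530, CP29) had 7.11, 6.05 and 6.67 CPM in wild type and 9.57, 8.32 and 7.65 CPM in papl1 papl2. Its groups did not overlap, and its log2 fold change of 0.37 ± 0.13 did not pass (adjusted p = 0.216, unadjusted p = 0.0208). LHCB6 (AT1G15820, CP24), the antenna gene of highest level, had 15.4, 12.9 and 12.0 CPM in wild type and 15.9, 16.0 and 13.4 CPM in papl1 papl2, with overlapping groups (log2 fold change 0.17 ± 0.12, adjusted p = 0.553). LHCB4.2, a second CP29 gene, had a log2 fold change of 0.30 and LHCB5 (CP26) one of 0.23, with adjusted p-values of 0.462 and 0.592.

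Among the trimer genes, LHCB1.5 (AT2G34420) had the highest log2 fold change. It had 3.48, 2.38 and 3.95 CPM in wild type and 7.56, 6.76 and 2.23 CPM in papl1 papl2, so that replicates 1 and 2 lay above every wild-type library and replicate 3 below all of them (log2 fold change 0.76 ± 0.39, adjusted p = 0.393). Without papl1 papl2 replicate 3 the log2 fold change was 1.13 with an adjusted p of 0.00658, and LHCB1.5 was then called higher. LHCB2.1 had 0.790, 0.397 and 0.619 CPM in wild type and 1.05, 0.277 and 0.0559 CPM in papl1 papl2 (log2 fold change -0.31, adjusted p = 0.879), again lowest in replicate 3. LHCB2.3 had 17, 6 and 19 counts in wild type and 14, 17 and 2 counts in papl1 papl2, with the same low library.

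LHCB1.2, LHCB1.3 and LHCB3 had log2 fold changes of -0.22, 0.10 and 0.05, and their groups overlapped. LHCB1.1 had 1 to 6 counts per library, beside 52 to 89 for LHCB1.2 and 61 to 95 for LHCB1.3, its neighbours on chromosome 1. These 3 genes share sequence: 13.9% of the 50-base stretches of LHCB1.1 occur in LHCB1.3 and 7.91% in LHCB1.2, so how reads were split among them is uncertain. Their counts summed to a log2 fold change of -0.05 (adjusted p = 0.922). LHCB1.4, the neighbour of LHCB1.5, had no counts, which leaves the sum of that pair at 0.76 with an adjusted p of 0.393.

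Photosystem II, which splits water, had no called gene, with 5 of its 9 tested genes above 0, 4 below and a median log2 fold change of 0.10. PSBX (AT2G06520), a small membrane subunit and the gene of highest level here, had 13.4, 13.0 and 11.1 CPM in wild type and 12.0, 13.1 and 15.3 CPM in papl1 papl2, with overlapping groups (log2 fold change 0.11 ± 0.12, adjusted p = 0.737). PSBW (AT2G30570), another small membrane subunit, had 0.263, 0.198 and 0.476 CPM in wild type and 0.670, 0.610 and 0.950 CPM in papl1 papl2. Its groups did not overlap, and its log2 fold change of 1.22 ± 0.44 rested on 4 to 17 counts per library and did not pass (adjusted p = 0.215).

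PSBS (AT1G44575), the sensor of lumen acidity that turns on the dissipation of excess light, had the most negative value. It had 9.59, 4.61 and 9.43 CPM in wild type and 7.22, 5.71 and 2.23 CPM in papl1 papl2, which amounts to a log2 fold change of -0.63 ± 0.39 (adjusted p = 0.490). The wild-type libraries spread over a wider range than the difference between the genotype means, and papl1 papl2 replicate 3 was again the lowest. The genes for proteins on the oxygen-evolving side, PSBO1, PSBO2, PSBP1, PSBQ1 and PSBR, had log2 fold changes between -0.09 and 0.43. Their sum with PSBQ2 was 13.8 ± 0.509 CPM in wild type and 14.7 ± 0.534 CPM in papl1 papl2. PSBY had a log2 fold change of -0.47 (adjusted p = 0.414), and PSBQ2 had 0 to 6 counts and was not tested.

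Electron transport between the photosystems and to NADP was the complex with the lowest median log2 fold change, -0.14, with 4 of 5 tested genes below 0 and none called. Without papl1 papl2 replicate 1 this median was 0.04. FD2 (AT1G60950), which carries electrons from photosystem I to the reductase, had 23.3, 20.7 and 26.0 CPM in wild type and 20.6, 21.0 and 19.5 CPM in papl1 papl2, with overlapping groups (log2 fold change -0.20 ± 0.09, adjusted p = 0.347). FNR1, a leaf-type ferredoxin-NADP reductase, had 2.90, 3.62 and 2.62 CPM in wild type and 2.25, 3.71 and 3.46 CPM in papl1 papl2 (log2 fold change 0.04 ± 0.24, adjusted p = 0.960). FNR2 and the plastocyanin genes PETE1 and PETE2 had log2 fold changes of -0.14, -0.16 and -0.03. PETC, the Rieske protein of the cytochrome b6f complex, had 5 to 15 counts and was not tested.

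Among the genes chosen here, those of carbon fixation had the fewest counts. RBCS1A had 5, 0 and 2 counts in papl1 papl2 and none in wild type, RBCS3B had 2 counts in papl1 papl2 replicate 3, and RBCS1B and RBCS2B had none in any library. PRK (phosphoribulokinase), an enzyme specific to the Calvin cycle, likewise had 2 counts, all in papl1 papl2 replicate 3. A count of 0 allows up to 3 counts in a library, so differences at these genes were not detectable at this depth. RCA, which clears inhibitors from Rubisco, had 1.63, 2.03 and 3.43 CPM in wild type and 2.34, 2.27 and 2.18 CPM in papl1 papl2, and the mutant libraries lay inside the wild-type range (log2 fold change -0.07 ± 0.29, adjusted p = 0.942).

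The remaining Calvin cycle genes were GAPA1 and GAPB, the subunits of the plastid NADP-dependent glyceraldehyde-3-phosphate dehydrogenase, and SBPASE, which makes sedoheptulose 7-phosphate. GAPB (AT1G42970) had 2.27, 1.93 and 2.14 CPM in wild type and 1.15, 1.83 and 1.73 CPM in papl1 papl2. All 3 mutant-labelled libraries lay below wild type, and the log2 fold change of -0.44 ± 0.25 did not pass (adjusted p = 0.450). SBPASE had 0.685, 0.794 and 1.05 CPM in wild type and 0.622, 0.721 and 1.34 CPM in papl1 papl2, with overlapping groups (log2 fold change 0.07 ± 0.38, adjusted p = 0.956). GAPA1 had a log2 fold change of -0.01.

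The replicates labelled papl1 papl2 were not alike across these genes. Of the 39 tested genes, 13 were highest in replicate 3, 10 in replicate 2 and 9 in replicate 1. Replicate 3 was the lowest of the 6 libraries for 9 genes and replicate 1 for 8, beside 10 for wild type replicate 3. Replicate 3 was the low library at LHCB1.5, LHCB2.1, LHCB2.3 and PSBS and the high one at PSAN. The sum of 7 root hair markers moved with it, at 36.8 to 42.5 CPM in wild type and 50.5, 42.6 and 25.1 CPM in papl1 papl2 replicates 1, 2 and 3. RHD6 made up most of it, with 31.2 to 37.5 CPM in wild type and 34.4, 30.8 and 24.3 CPM in papl1 papl2. None of the 7 was at 0 in all libraries. EXPA7, EXPA18 and PRP3 had 0 counts in papl1 papl2 replicate 3. In wild type, EXPA7 and EXPA18 had 0 counts in replicate 3 and PRP3 in replicate 1. The xylem sum was likewise lowest in replicate 3 (27.1, 19.96 and 12.6 CPM), and the root tip sum was highest there (118, 126 and 145 CPM). RSL4, a transcription factor of root hair growth, had 0.738, 0.595 and 0.429 CPM in wild type and 4.16, 3.22 and 0.279 CPM in papl1 papl2 (log2 fold change 2.13, adjusted p = 0.194), and without replicate 3 its log2 fold change was 2.65 (adjusted p = 0.00052). With DESeq2 and all libraries its adjusted p was 0.0227. The part of this difference between libraries in the values of the photosynthesis genes was not tested.

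**Figure D4:**
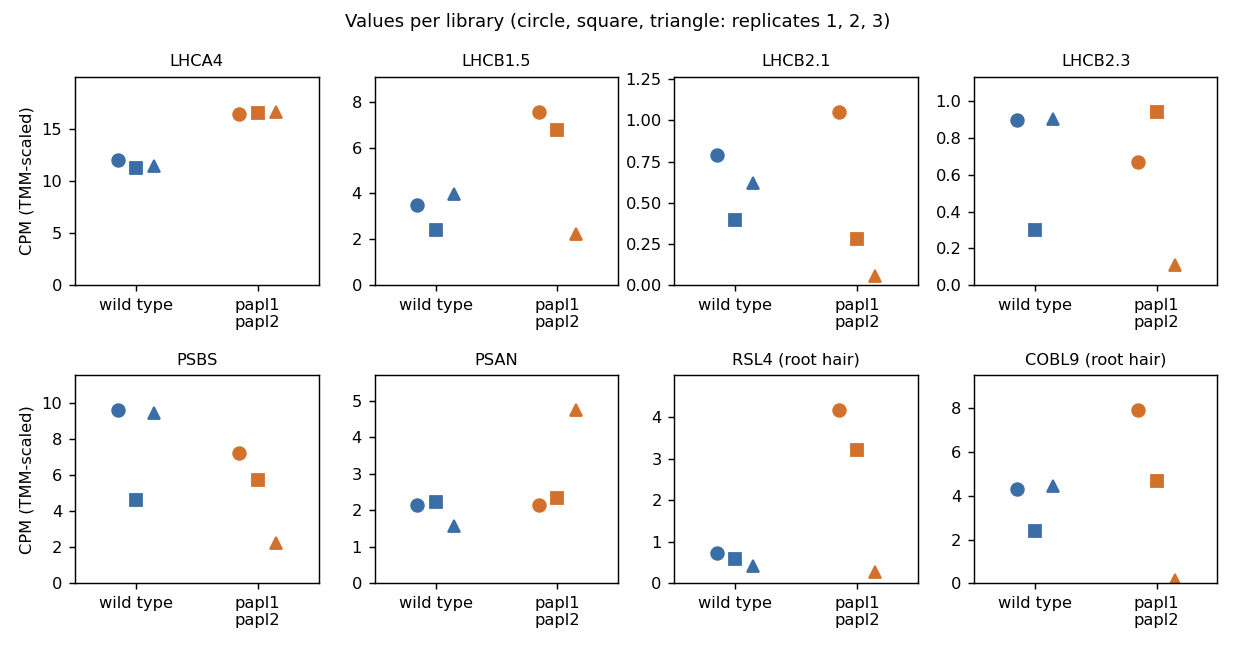
TMM-scaled CPM in each library, axes from 0, for 6 photosynthesis genes and the root hair genes RSL4 and COBL9. LHCA4 is level within each genotype (16.4 to 16.6 CPM in papl1 papl2), whereas papl1 papl2 replicate 3, the orange triangle, is the lowest library at LHCB1.5, LHCB2.1, LHCB2.3, PSBS, RSL4 and COBL9 (0.168 CPM) and the highest at PSAN. Panels other than LHCA4 were picked for their values in that library. Of the root hair markers not drawn, RHD6 was also lowest there (24.3 CPM). LRX1 (0.391 CPM) lay within its wild-type range (0.143 to 0.843 CPM).

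Markers of other tissues were read beside these results. Of 15 shoot genes, 6 were at 0 in all libraries (CER6, SPCH, FAMA, EPF1, FIL and YAB3) and 10 never exceeded 3 counts. Their sum was 1.43 to 2.16 CPM in wild type and 0.894 to 1.55 CPM in papl1 papl2, and the 1 gene with enough counts to test was TMM (TOO MANY MOUTHS), a stomatal receptor gene (log2 fold change -0.64, adjusted p = 0.652). The sum of 8 endodermis markers was 70.9 to 76.2 CPM in wild type and 72.1 to 78.1 CPM in papl1 papl2. SCR made up most of this sum, with 66.9 to 73.0 CPM in wild type and 65.5 to 69.6 CPM in papl1 papl2. Only 2 of the 8, SCR and MYB36, had enough counts to test. MYB36, a regulator of endodermal differentiation, had 3.21, 3.27 and 2.57 CPM in wild type and 7.56, 6.43 and 6.03 CPM in papl1 papl2. MYB36 rose by a log2 value of 1.15 ± 0.17 (adjusted p = 0.00961). It was the only tested gene of the 5 marker lists to pass, and its adjusted p was 0.0534 without wild type replicate 1 and 0.0503 without wild type replicate 3. Root tip markers summed to 137 to 140 CPM in wild type and 118 to 145 CPM in papl1 papl2, with the smallest p at SMB (log2 fold change -0.26, adjusted p = 0.232, and 0.0156 without papl1 papl2 replicate 3). Xylem markers summed to 17.1 to 20.2 CPM and 12.6 to 27.1 CPM, with the smallest p at CESA7 (log2 fold change 0.24, adjusted p = 0.518). The part of the share of these cells in the LHCA4 difference was not tested.

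Further genes of the same pathways gave no called member. None of the 5 tested of 10 other antenna and photosystem genes passed. Nor did any of the 9 tested of 10 genes for the cytochrome b6f complex, cyclic electron flow and the plastid ATP synthase. The same held for the 10 tested of 15 other Calvin cycle genes. The smallest p-values in these lists belonged to PSB29, a thylakoid formation factor (log2 fold change 0.27, adjusted p = 0.137), FD1, a second leaf-type ferredoxin (log2 fold change -0.51, adjusted p = 0.146), and RPE, a pentose phosphate epimerase (log2 fold change 0.39, adjusted p = 0.0928). FD1 had 61.2, 46.7 and 64.2 CPM in wild type and 39.7, 49.0 and 32.6 CPM in papl1 papl2, with overlapping groups, and its adjusted p was 0.0104 with DESeq2. A further set was picked out after their values were seen and did not pass either: PSAP and PSB27 with log2 fold changes of 0.49 and 0.76, PSB28 and PGR5 with -0.66 and -0.96, and CP12-1 with 0.82.

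The root-type counterparts of the electron transport genes stood above the leaf types. FD3, the ferredoxin of non-green plastids, had a level of 267 CPM per kb beside 57.2 for FD1 and 22.2 for FD2. In these plastids RFNR1 and RFNR2 pass electrons from NADPH to FD3, the reverse of the leaf direction. The 3 genes had log2 fold changes of -0.15, -0.17 and -0.17 with adjusted p-values of 0.257, 0.180 and 0.200, so none passed. Their summed expression was 546.8, 492.7 and 509.5 CPM in wild type and 457.6, 468.3 and 461.6 CPM in papl1 papl2, without overlap.

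Upstream sequence was read for all 54 genes as the 250 bases before the annotated start in the TAIR10.1 assembly (RefSeq), and searched on both strands. The G-box CACGTG, a palindrome bound by bZIP and bHLH factors of light responses, was found upstream of 10 of the 54 genes (18.5%), beside 5.92% of 31887 windows of the same length for all genes. The I-box GATAAG was found upstream of 14 (25.9%, beside 12.7%), and CCAATC upstream of 14 (25.9%, beside 10.4%). The Dof core AAAG was present upstream of 52 genes (96.3%, beside 97.5%), and TATAAA upstream of 40.7% (beside 45.9%). The short Dof core was thus about as frequent as among all genes, and LHCB2.3 and LHCB4.1 were the genes without it. For 22 of the 54 genes the window overlaps exons of another gene.

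The G-box stood both upstream of well-counted genes and upstream of genes with no or almost no counts, which the following windows show. They belong to LHCA4 (chr3:17495034-17495283, minus strand), LHCB4.1 (chr5:208616-208865, plus strand), RBCS2B (chr5:15382072-15382321, minus strand) and PRK (chr1:11531949-11532198, plus strand), each 5′ to 3′ toward the gene, with the G-box and, on either strand, the I-box in capitals.
LHCA4: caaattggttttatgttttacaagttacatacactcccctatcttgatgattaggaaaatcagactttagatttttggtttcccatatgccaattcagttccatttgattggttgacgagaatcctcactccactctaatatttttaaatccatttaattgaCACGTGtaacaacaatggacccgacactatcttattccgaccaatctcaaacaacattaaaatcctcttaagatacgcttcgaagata
LHCB4.1: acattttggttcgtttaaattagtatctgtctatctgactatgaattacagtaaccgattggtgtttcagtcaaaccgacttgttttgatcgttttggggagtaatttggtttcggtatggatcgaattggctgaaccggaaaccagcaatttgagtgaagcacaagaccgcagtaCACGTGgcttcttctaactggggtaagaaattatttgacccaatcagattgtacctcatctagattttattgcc
RBCS2B: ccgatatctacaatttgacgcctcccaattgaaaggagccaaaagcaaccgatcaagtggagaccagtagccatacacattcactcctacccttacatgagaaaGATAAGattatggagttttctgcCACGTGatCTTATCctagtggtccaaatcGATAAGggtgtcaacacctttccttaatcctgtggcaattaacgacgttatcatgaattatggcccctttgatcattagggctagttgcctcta
PRK: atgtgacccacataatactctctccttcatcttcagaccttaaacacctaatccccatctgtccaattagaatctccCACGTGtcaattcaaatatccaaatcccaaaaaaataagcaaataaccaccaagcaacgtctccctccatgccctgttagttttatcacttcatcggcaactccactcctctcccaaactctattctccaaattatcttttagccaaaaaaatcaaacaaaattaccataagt
The G-box begins 88 bases before the start in LHCA4, 74 in LHCB4.1, 123 in RBCS2B and 173 in PRK, and RBCS2B has 3 I-boxes as well. LHCA4 had 227 to 343 counts per library and LHCB4.1 had 122 to 200, while RBCS2B had none and PRK at most 2. A match is a description of the letters in this window.

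Overlapping genes limit several of these values, because the strand setting of the counting is not given in the sources used here. Exons of 20 of the 54 genes overlap another annotated gene, 18 of them on the opposite strand. For 19 of them the overlapping gene is in the table, and in 18 cases it had more counts than the photosynthesis gene. LHCA4 is one of these: AT3G47460 had 386 to 513 counts, and it holds 0.36% of the 50-base stretches of LHCA4. PSAN overlaps AT5G64030 with 2206 to 3033 counts. LHCB1.5 overlaps AT2G34410, which had 698 to 928 counts and holds 5.02% of its 50-base stretches. A further gene on the opposite strand, AT2G08665, holds 100% of the stretches of LHCB1.5. It is not listed in the count table, so its own expression is not known here.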

How the data were processed

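Per the labels, RNA was enriched with oligo-dT, copied with random hexamers and amplified by PCR, with no molecular identifiers mentioned. The authors deposited whole-number read counts per gene, not normalized. The submitters' processing notes list TopHat2, HTSeq, DESeq, DESeq2 and the build TAIR10 without versions, roles or strand setting. Of the 32678 identifiers, 31912 matched RefSeq locus tags of TAIR10.1, as did all 54 genes described here. Loci for COG1 and CDF4 came from general knowledge.

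The test was edgeR 4.0.16 in R 4.3.3, with filterByExpr (minimum count 10, minimum total 15), TMM scaling, the quasi-likelihood F test of genotype over the 6 libraries, and Benjamini-Hochberg adjustment over 17720 genes. A gene was called at an adjusted p under 0.05. Each SE is the size of the log2 fold change over the root of F. CPM are TMM-scaled, and levels between genes are per kb of merged exons. Alternatives were DESeq2 1.42.0, its size factors or upper-quartile factors in edgeR, no filter, and a mean of at least 1 CPM. Further ones were replicate number as a block, counts summed within 7 paralog families, and each library left out. The steps were tested on simulated data.

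The genes and lists were chosen with earlier results of these data known. Values per library are given for called genes and, in each complex, for the gene of highest mean CPM, smallest p, and highest and lowest log2 fold change. Of other lists, called genes and the smallest p are given. No libraries were found to be duplicates.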

Additional observations from a re-analysis of the deposited data

How the results depend on the processing

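In settings that kept all 6 libraries, no tested photosynthesis gene changed sign, and 25 of 39 kept their sign in every alternative that gave them a value (11 to 13 each). Genes called over the whole table numbered 744 with DESeq2 and 259 with the replicate block, of which 227 were higher, and ran from 144 (without wild type replicate 1) to 1164 (without papl1 papl2 replicate 3) when a library was left out, with 131 to 909 higher. Photosynthesis genes called higher numbered 0 with the replicate block and 0 to 2 with a library left out. Same-numbered libraries did not deviate together (correlations -0.00913, -0.0601 and -0.107), so the block pairs numbers only. The median log2 fold change of PSA was 0.43 without a filter and 0.18 to 0.36 with a library left out, that of the Calvin cycle -0.22 with a mean of at least 1 CPM and -0.34 to 0.13 with a library left out, and that of RCA -0.27 to 0.30.

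Leaving out 1 library turned the sign of genes that were not called, over log2 ranges of -0.10 to 0.24 for FNR1, -0.41 to 0.043 for FNR2, -0.21 to 0.13 for GAPA1, -0.066 to 0.34 for LHCB1.3, -1.81 to 0.19 for LHCB2.1, -0.78 to 0.19 for LHCB2.3, -0.16 to 0.24 for LHCB3, -0.45 to 0.13 for PETE1, -0.13 to 0.040 for PETE2, -0.032 to 0.26 for PSAF, -0.27 to 0.020 for PSBO1, -0.16 to 0.084 for PSBR, -0.27 to 0.30 for RCA, -0.34 to 0.28 for SBPASE and -1.24 to 0.037 for TMM. The cause of these moves was not tested. With 3 libraries per genotype and fewer than 100 counts for many of these genes, small differences were not detectable at this depth.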

Other observations

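Some enzymes of the Calvin cycle also serve glycolysis or the pentose phosphate pathway in plastids without photosynthesis, and their genes stood at other levels than those of enzymes specific to carbon fixation. These genes were picked out after their levels were seen. Among plastid fructose-bisphosphate aldolases, FBA3 had a level of 346 CPM per kb over the 6 libraries, beside 0.0325 for FBA1 and 0.00449 for FBA2. The triose phosphate isomerase gene PDTPI had 149.8 CPM per kb and the transketolase gene TKL1 had 143.7, beside 0.497 for SBPASE and 0.00985 for PRK. Between the genotypes FBA3 had a log2 fold change of -0.07, PDTPI 0.02 and TKL1 0.00, with edgeR adjusted p-values of 0.688, 0.927 and 0.995.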
